A study of Homo sapiens with 9 samples.

Results

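The islands of the 4 KO libraries of BEAS-2B cells are described here and compared with each other: H3K9me3, H3K27me3, H3K4me3 and H3R8me2a. They were taken by library name, and amounted to 81911 of the 141489 islands deposited for KO and WT cells. An island is a stretch of the genome where the reads of a chromatin immunoprecipitation (ChIP-seq) were joined into one enriched region, and it is given by its start and end alone. BEAS-2B is a human bronchial epithelial line immortalized with a virus. The KO cells lacked the mdig protein after CRISPR-Cas9 editing with a guide on exon 3 of the gene and blasticidin selection, and the WT cells came from colonies that went through the same targeting and kept mdig. Both were grown in medium with blasticidin, and the sources used here do not give which colony was sequenced. There were 4 KO libraries and 4 WT libraries of the marks and 1 input library of WT cells, with 1 library for each mark and genotype. No comparison below therefore has a replicate or a test. No heights or read numbers come with the islands, so the depth is unknown. Intervals given below are exact 95% binomial intervals over islands and cover counting error only.

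H3K9me3 and H3K27me3 are marks of repressed chromatin. H3K9me3 is written by SETDB1 and the SUV39H enzymes, is bound by HP1 proteins, and is known for silencing repeats and gene clusters such as zinc finger and protocadherin genes. H3K27me3 is written by the Polycomb enzyme EZH2 and covers silent developmental genes, often over CpG-rich promoters. H3K4me3 marks the promoters of active or poised genes, and H3R8me2a is an asymmetric dimethylation of arginine 8 of the same histone, next to lysine 9. Since the residues lie on the same tail, islands of more than 1 mark at a site can stand for the same nucleosomes or for different cells and alleles, which islands cannot tell apart.

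RIOX2, the gene of mdig (ENSG00000170854.18, chromosome 3, 97660662 to 97691301 in GRCh37, minus strand), had 2.90 kb of H3K4me3 and 3.10 kb of H3R8me2a within 2 kb of its start in KO cells, against 2.70 kb of H3K4me3 and no H3R8me2a in WT cells. Neither genotype had H3K9me3 or H3K27me3 there, and islands do not check the edit. H3K4me3 lay at the promoters of 10 of 15 airway epithelial markers in KO cells (66.7%, near the 64.4% of all protein-coding genes), among them the keratins KRT7, KRT8 and KRT18 and EPCAM, a surface adhesion protein. The basal cell markers KRT5, KRT14, KRT17 and TP63 had none. Of 12 mesenchymal markers, 10 had H3K4me3, VIM and FN1 included, while 2 of 12 leukocyte markers had it, CD14 and CD8A. Of 7 neuronal markers 4 had it (57.1%), GAD1, NEUROD1, SLC17A7 and SNAP25, each with H3K27me3 as well, so the H3K4me3 counts do not set the airway markers apart. PTPRC, the pan-leukocyte surface protein, had no island of any mark at its promoter.

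The promoters of 3 genes show the base composition over which H3K9me3 was found. Each is the leading gene, by H3K9me3 cover, of a frequent combination that includes H3K9me3 and another mark. The 250 bases before the start are printed 5′ to 3′ on the gene's strand, from GRCh37, with every CG dinucleotide in capitals. COL23A1 stands for H3K9me3 with H3K27me3, the readthrough gene ZNF670-ZNF695 for H3K9me3 with H3K4me3, and ZNF141 for H3K9me3 with H3K4me3 and H3R8me2a.
COL23A1, chr5:178017395-178017644, minus strand: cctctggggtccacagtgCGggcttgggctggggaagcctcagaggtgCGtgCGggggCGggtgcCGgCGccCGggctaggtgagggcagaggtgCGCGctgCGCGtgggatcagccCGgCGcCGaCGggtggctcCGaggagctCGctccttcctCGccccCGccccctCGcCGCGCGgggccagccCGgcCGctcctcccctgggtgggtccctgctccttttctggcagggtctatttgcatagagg
ZNF670-ZNF695, chr1:247242114-247242363, minus strand: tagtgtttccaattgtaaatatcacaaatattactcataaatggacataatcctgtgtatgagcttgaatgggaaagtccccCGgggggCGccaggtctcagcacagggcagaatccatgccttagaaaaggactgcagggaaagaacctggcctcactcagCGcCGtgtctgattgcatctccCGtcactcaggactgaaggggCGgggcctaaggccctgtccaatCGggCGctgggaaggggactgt
ZNF141, chr4:331353-331602, plus strand: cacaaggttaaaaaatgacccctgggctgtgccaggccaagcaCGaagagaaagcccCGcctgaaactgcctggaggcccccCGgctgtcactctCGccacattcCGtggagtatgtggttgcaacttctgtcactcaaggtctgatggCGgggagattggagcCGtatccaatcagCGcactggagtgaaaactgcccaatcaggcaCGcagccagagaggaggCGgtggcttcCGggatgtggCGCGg

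The sequences held 25 CG in COL23A1, 8 in ZNF670-ZNF695 and 13 in ZNF141. The motif reads the same on both strands, and 96.3% of all promoters had at least 1 in these 250 bases, with a median of 14. COL23A1, a transmembrane collagen, thus carried H3K9me3 over a CG-dense start, and ZNF670-ZNF695 over a start with fewer CG in these 250 bases than the median.

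Genome-wide, H3K9me3 shared more of its length with H3K27me3 than with either of the other marks. H3K9me3 covered 194.9 Mb in KO cells in 32264 islands with a median length of 4.4 kb. H3K27me3 covered 341.6 Mb in 22633 islands, H3K4me3 102.1 Mb in 17503 and H3R8me2a 100.4 Mb in 9511. Of the H3K9me3 bases, 68.3% (133.1 Mb) lay under no other mark and 25.9% (50.4 Mb) under H3K27me3 alone. In all, 27.6% of H3K9me3 bases lay under H3K27me3, against 10.8% of the bases outside H3K9me3, a ratio of 2.55. For H3K4me3 the shares were 2.15% and 3.68%, and for H3R8me2a 4.42% and 3.45%. The closest pair among the 4 marks was H3K4me3 and H3R8me2a: 42.9% of H3K4me3 bases lay under H3R8me2a, against 2.05% of the rest, and 70.1% of H3R8me2a islands met an H3K4me3 island. Bases under 2 or more marks made up 18.8% of the 616.6 Mb under any mark.

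Counted as islands, 7778 of 32264 H3K9me3 islands (24.1%, interval 23.6 to 24.6) overlapped H3K27me3 by at least 1 base, 1646 (5.10%, interval 4.86 to 5.35) overlapped H3K4me3 and 1596 (4.95%, interval 4.71 to 5.19) H3R8me2a. Of the islands, 16.6% lay wholly inside H3K27me3, against 0.518% wholly inside H3K4me3 and 1.36% inside H3R8me2a. Of the 1646 that overlapped H3K4me3, 506 had at least as much of their length under it as outside it. Where within an island the marks met was not measured. A further 851 H3K9me3 islands (2.64%) did not touch H3K4me3 but had it within 2 kb. This was a larger share than for H3K27me3 (1.59%) or H3R8me2a (1.35%). Islands that met another mark had higher medians than those that met none, but the order among the rest did not follow the number of marks. The median was 4.0 kb for the 22419 islands with no other mark, 5.8 kb for the 7129 with H3K27me3 alone, 5.6 kb for the 911 with H3K4me3 alone, 6.8 kb for the 714 with H3R8me2a alone, 6.6 kb for the 209 with H3K27me3 and H3K4me3, 6.3 kb for the 442 with H3K4me3 and H3R8me2a, 9.8 kb for the 356 with H3K27me3 and H3R8me2a and 11.6 kb for the 84 that met all 3 others. The part of island length in these overlaps was not tested. Islands that met other marks also lay more often over protein-coding genes, at 43.5% for no other mark, 46.6% for H3K27me3 alone and 64.8% for H3K4me3 alone.

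The 4 longest H3K9me3 islands in KO cells lay over zinc finger genes. The longest, 193.8 kb on chromosome 12 from 133559001 to 133752800 (hg19), covered ZNF26, ZNF84, ZNF140, ZNF891 and ZNF10, with 18.8 kb under H3K4me3, 1.8 kb under H3R8me2a and none under H3K27me3. The next were 143.6 kb and 126.6 kb on chromosome 19, over ZNF606, ZNF135, ZNF329, ZNF274 and ZNF544 among others, and 116.6 kb on chromosome 1 over ZNF678. H3K27me3 took 24.8 kb of the island of 143.6 kb and none of the other two. Of the 10 longest, the island over the calcium channel subunit genes CACNG4 and CACNG1 on chromosome 17 had 62.7% of its 86.4 kb under H3K27me3. An island on chromosome 3 from 126756801 to 126836400, with no protein-coding gene, lay wholly under H3K27me3 over its 79.6 kb and under H3R8me2a for 51 kb.

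Promoters were taken as the 2 kb on both sides of the start of 20136 protein-coding genes, a window of 4001 bases. An island of H3K9me3 lay in 11.1% of these windows (2238 genes), H3K27me3 in 21.4% (4319), H3K4me3 in 64.4% (12967) and H3R8me2a in 35.2% (7095). H3K9me3 was thus the least frequent of the 4 at promoters, although it covered more of the genome than H3K4me3 or H3R8me2a. Among the promoters with H3K9me3, 685 also had H3K27me3 and nothing else, 577 had H3K9me3 alone, 479 had H3K4me3 and 257 had H3K4me3 with H3R8me2a. The remaining combinations were small, with 97 promoters for H3K9me3, H3K27me3 and H3K4me3, 49 for H3K9me3, H3K27me3 and H3R8me2a, 47 for H3K9me3 and H3R8me2a and 47 for all 4 marks. No mark was found at 3581 promoters.

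**Figure D1:**
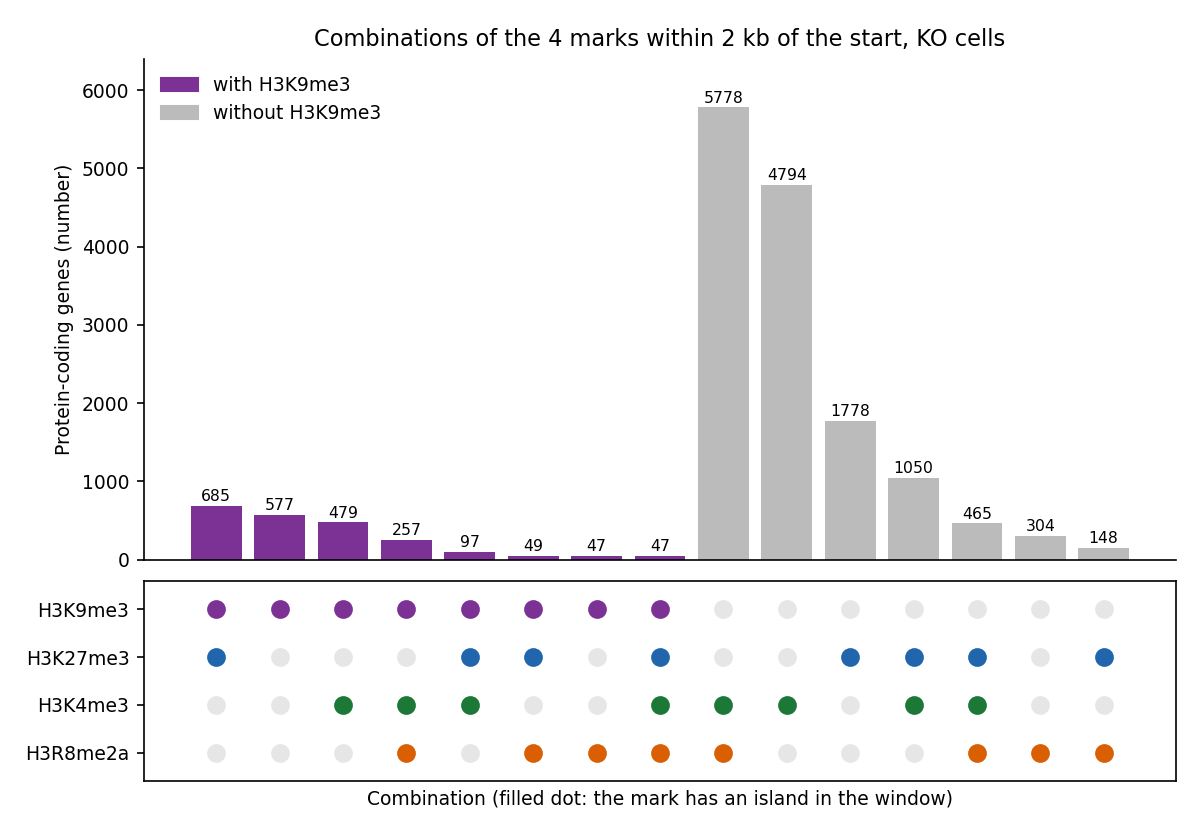
Number of protein-coding genes (vertical axis) with each combination of island marks within 2 kb of the start in KO cells, with filled dots under a bar for its marks and purple bars for those with H3K9me3. The largest purple bar is H3K9me3 with H3K27me3 (685 genes), and the largest grey bar is H3K4me3 with H3R8me2a (5778 genes).

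Promoters with H3K9me3 carried H3K27me3 more often, and H3K4me3 and H3R8me2a less often, than promoters without it. H3K27me3 lay at 39.2% of promoters with H3K9me3 (878 of 2238) and at 19.2% of those without (3441 of 17898), a difference of 20.01 percentage points. H3K4me3 lay at 39.3% with H3K9me3 (880) and at 67.5% without, a difference of -28.21 points. H3R8me2a lay at 17.9% with H3K9me3 (400) and at 37.4% without, a difference of -19.53 points. Neighbouring genes can share a window, and over the 15415 genes whose window met no other, the differences were 20.06, -27.00 and -15.38 points.

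**Figure D2:**
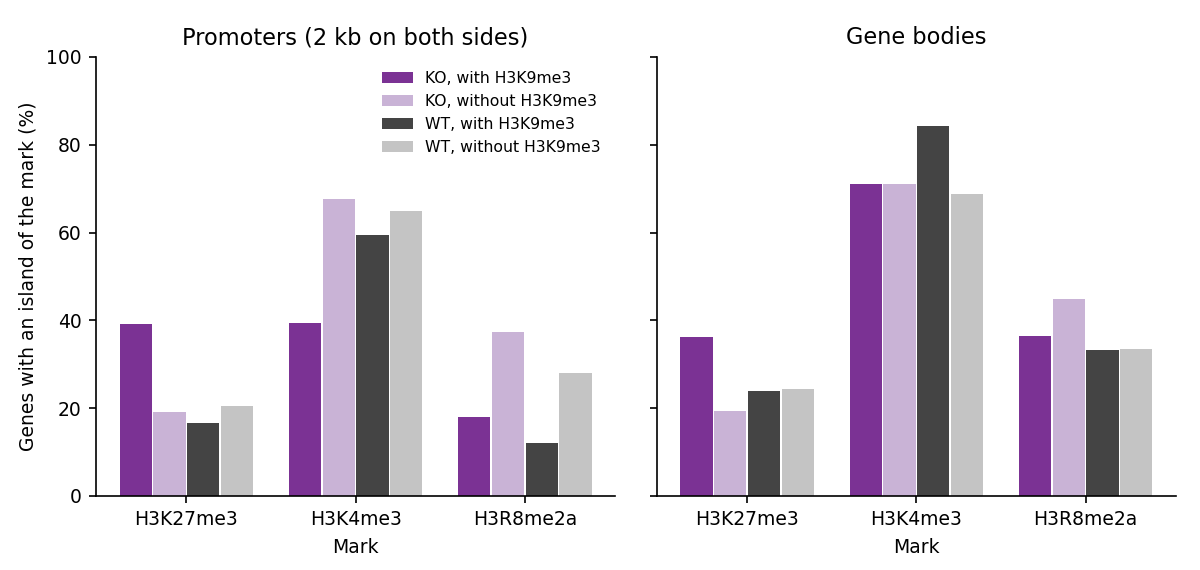
Share of genes (%) with an island of H3K27me3, H3K4me3 or H3R8me2a, at promoters (left) and over gene bodies (right), with bars from left to right for KO genes with H3K9me3, KO genes without it, WT genes with it and WT genes without it. In KO cells the H3K27me3 bar is higher with H3K9me3 in both panels (39.2% at promoters), and in WT cells it is not (16.5% at promoters).

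The state of H3K4me3 and H3K27me3 at a promoter went with the share that held H3K9me3. H3K9me3 was most frequent at promoters with H3K27me3 and no H3K4me3, at 27.6% (734 of 2660). It was found at 13.8% of promoters with neither mark (624 of 4509), at 8.68% with both (144 of 1659) and at 6.51% with H3K4me3 alone of the 2 (736 of 11308). Promoters with both H3K27me3 and H3K4me3, which are often called bivalent, were therefore close to the H3K4me3 promoters and not to the H3K27me3 promoters in this respect. The excess of H3K27me3 was large where H3K4me3 was absent, with 54.1% of promoters with H3K9me3 against 33.1% without, and small where it was present, with 16.4% against 12.5%. The deficit of H3R8me2a was seen at promoters with H3K4me3, at 34.5% with H3K9me3 and 51.7% without. Without H3K4me3 the shares were 7.07% and 7.78%.

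Co-marked promoters mostly shared bases, but the marks sat differently relative to the start. H3K9me3 and H3K27me3 shared at least 1 base in 855 of 878 windows (97.4%), with a median of 2.6 kb under both. For H3K4me3 it was 805 of 880 (91.5%), with a median of 1.4 kb, and for H3R8me2a 324 of 400 (81.0%), with 1.06 kb. The start itself lay under H3K9me3 in 75.9% of promoters with H3K9me3 alone and in 68.1% of those that also had H3K27me3, but in 40.2% of those with H3K4me3 and 36.0% of those with H3R8me2a. The start lay under both marks in 62.9% of the H3K27me3 pairs and 35.5% of the H3K4me3 pairs. H3K9me3 covered more of the upstream side in 458 and more of the downstream side in 294 of the promoters with H3K4me3. With H3K27me3 the order was turned, with 250 upstream and 383 downstream. H3K9me3 filled the whole window at 490 promoters, 245 of them with H3K27me3 and 128 with H3K4me3.

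The plot of cover around the start shows these shapes. At the 736 promoters with H3K9me3 and H3K4me3 but no H3K27me3, H3K9me3 lay over 71.3% of genes at 2 kb upstream, 40.2% at the start and 52.7% at 2 kb downstream, while H3K4me3 covered 94.2% at the start. At the 734 with H3K9me3 and H3K27me3 but no H3K4me3, H3K9me3 had its highest cover inside the gene, with 77.5% at 0.8 kb downstream, inside a broad H3K27me3 domain that still covered 65.0% at 10 kb upstream and 72.9% at 10 kb downstream. These sets were chosen by islands within 2 kb, which fixes part of the shape. The 246 zinc finger genes of chromosome 19 were chosen by symbol and position, and they had a similar dip: 61.8% under H3K9me3 at 2 kb upstream, 48.8% at the start and 67.9% at 2 kb downstream, with 81.3% under H3K4me3 at the start. The clustered protocadherins differed from both, with 60.4% under H3K9me3 at the start and 86.8% from 1 to 2 kb downstream, which lies over the large variable exon that begins each of these genes.

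**Figure D3:**
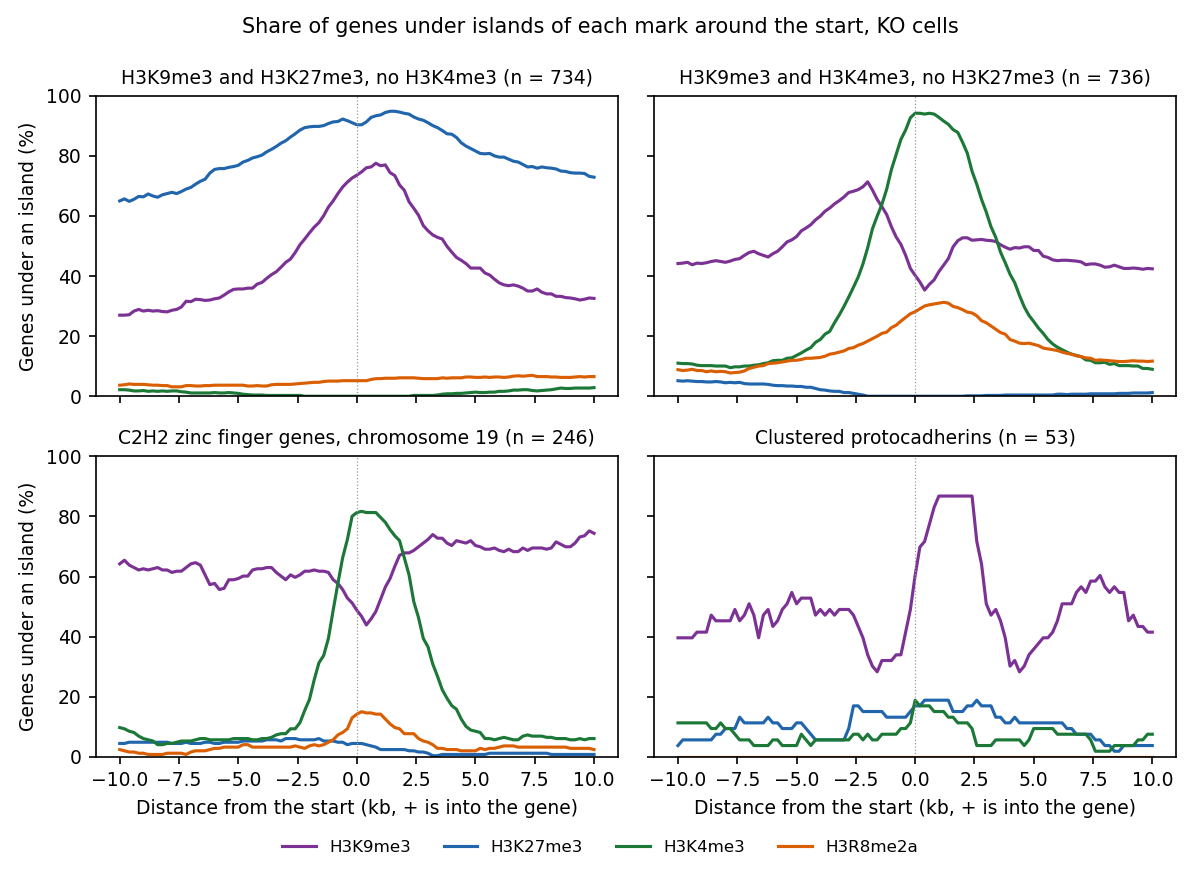
Share of genes (%, vertical axis) under an island of each mark at each distance from the start (kb, horizontal axis, positive into the gene) in KO cells, for 2 promoter sets chosen by their islands (top) and 2 gene families (bottom). H3K9me3 dips at the start where H3K4me3 peaks, as in the zinc finger genes of chromosome 19 (48.8% against 81.3% at the start), and peaks at or past the start in the other panels.

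Promoters with H3K9me3 and H3K27me3 in KO cells are described by the genes with most H3K9me3. The genes named were those with the most H3K9me3 bases in the window and then in the body, which favors long genes. COL23A1 (ENSG00000050767.18, chromosome 5, 177664477 to 178017394, minus strand) had both marks over the whole window, as did GALNT9, which starts mucin-type O-glycosylation, SLCO2A1, a prostaglandin transporter, and JAKMIP3. In ERICH1, H3K9me3 filled the window and H3K27me3 took 3.001 kb of it. None of these 5 promoters had H3K4me3 or H3R8me2a. In WT cells the H3K27me3 of 4 of them filled the window too, SLCO2A1 being the exception with no island of any mark, and H3K9me3 was found in COL23A1 alone, with 3.39 kb. Of the 878 KO promoters with both marks, 780 (88.8%) had H3K27me3 in WT cells and 105 (11.96%) had H3K9me3.

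The families with the highest H3K27me3 shares had H3K9me3 at 20.5% of promoters (HOX), 29.2% (developmental factors) and 25.5% (voltage-gated channels), against 11.1% of all genes. These shares depend on the island lengths used. With the longest islands of each mark at equal total length, the counts were 1 of 39, 17 of 144 and 3 of 55, against 943 of all 20136 genes. Among the 7 neuronal markers, 6 had H3K27me3 at the promoter and 0 had H3K9me3. H3K27me3 lay at 36 of 39 HOX genes (92.3%), which set the body axis. H3K9me3 lay at 8, of which 7 also had H3K27me3, no larger a share than among all HOX genes. HOXD9 had both marks over the whole window with no H3K4me3, and HOXC11 had 3.11 kb of H3K9me3, the whole window of H3K27me3 and 2.11 kb of H3K4me3. Of 144 developmental transcription factors of homeobox, forkhead, SOX, T-box, GATA and paired-box families, 42 had H3K9me3, and 33 of these had H3K27me3. FOXA2, a regulator of endoderm, and LHX8, a forebrain factor, had both marks over the whole window and no H3K4me3, while FOXD3, a neural crest factor, had 3.96 kb of H3K4me3 as well. Among 55 voltage-gated channel genes, 14 had H3K9me3 and 11 of these H3K27me3, as in KCNA1 and KCNA6, neighbouring potassium channel genes. Olfactory receptors, which are silent outside the nose, had H3K27me3 at 107 of 414 promoters (25.8%, near the 21.4% of all genes). They had H3K9me3 at 18 (4.35%, against 11.1% of all genes). No mark was found at 299 of the 414, against 17.8% of all promoters.

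Keratins of hair follicles stood in this group as a run of neighbours. KRT71, KRT72, KRT73 and KRT74, type II keratins of the inner root sheath, each had H3K9me3 and H3K27me3 over the whole window in KO cells and H3K27me3 alone in WT cells. In all, 15 of 55 keratins had H3K9me3 (27.3%, against 11.1% of all genes), 10 of them with H3K27me3 and none with H3K4me3. KRT19, a keratin of simple epithelium, had 3.64 kb of H3K9me3 in KO cells with 0.241 kb of H3R8me2a and no other mark, and in WT cells no island at all.

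H3K9me3 and H3K4me3 were each frequent at the promoters of zinc finger genes, and many had both. The C2H2 zinc finger genes, taken as those with a ZNF symbol, encode DNA-binding proteins that often recruit the H3K9me3 machinery themselves. On chromosome 19, where many lie in clusters, 198 of 246 (80.5%, against 11.1% of all genes) had H3K9me3 and 202 (82.1%, against 64.4%) had H3K4me3. Both marks lay at 161, and H3K27me3 at 17. H3K4me3 thus lay at 161 of the 198 with H3K9me3, a share close to its 202 of all 246. The 2 marks met about as often as their separate frequencies give, and no test was run. Their median promoter held 2.40 kb of H3K9me3, against 0 kb over all genes. On other chromosomes 89 of 262 (34.0%) had H3K9me3, and 71 of these had H3K4me3. Together they made up 38.2% of the 479 promoters with H3K9me3 and H3K4me3 alone, against 2.52% of all genes and 1.90% of promoters with H3K9me3 and H3K27me3 alone. Chromosome 19 held 185 of the 479 (38.6%), against 7.35% of all genes. Without the genes of ZNF symbols, 648 promoters still had H3K9me3 and H3K4me3, which is 33.2% of the promoters with H3K9me3. These still include zinc finger genes of other symbols, such as ZSCAN5A.

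In single genes of this group both marks lay over the same bases. ZNF529 on chromosome 19 had H3K9me3 over the whole window and 3.2 kb of H3K4me3 in KO cells, against no H3K9me3 and 2.82 kb of H3K4me3 in WT cells. ZNF132 had the whole window and 3.0 kb in KO cells, against the whole window and 3.2 kb in WT cells. ZNF670-ZNF695 on chromosome 1 had the whole window and 3.09 kb in KO cells, and 3.69 kb of H3K4me3 with no H3K9me3 in WT cells. CHFR, a ubiquitin ligase of the mitotic checkpoint that borders the chromosome 12 cluster, had both marks over the whole window in both genotypes. ZNF141, ZNF10 and ZNF891 had H3R8me2a as well, with 2.6 kb, 1.8 kb and 1.8 kb in KO cells and none in WT cells. Some of these windows overlap, as those of ZNF10 and ZNF891, which start on opposite strands from neighbouring positions.

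H3K9me3 alone was frequent in 2 clusters of related genes, with counts that depend on the island lengths used. With the longest islands of each mark kept up to an equal total length, H3K9me3 lay at 13 protocadherin and 1 pregnancy-specific glycoprotein promoters, against 47 and 9 with all islands. Of 53 clustered protocadherins, cell surface proteins of neuronal identity on chromosome 5, 47 (88.7%, against 11.1% of all genes) had H3K9me3. It was the only mark at 30 of them, while 11 of the 53 had H3K4me3, 11 had H3K27me3 and none had H3R8me2a. PCDHGA6 had H3K9me3 over the whole window in both genotypes. PCDHB5, with the whole window in KO cells, had no H3K9me3 and 1.40 kb of H3K4me3 at its promoter in WT cells. The windows and bodies of these genes overlap. Of 10 pregnancy-specific glycoproteins, placental secreted proteins on chromosome 19, 9 had H3K9me3, 7 of them with no other mark and none with H3K27me3, and 4 had H3K9me3 in WT cells. PSG9 had 3.88 kb and PSG2 3.797 kb. Outside these clusters, FRMD4A, a scaffold of cell polarity, and AFF3, a nuclear protein of the transcription elongation family, had the whole window under H3K9me3 alone in KO cells, against 2.80 kb and none in WT cells.

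H3R8me2a met H3K9me3 at 400 promoters, and 304 of these also had H3K4me3. The 96 without H3K4me3 included the secreted pancreatic enzyme gene CPA1, with both marks over the whole window and its whole body of 7.78 kb, and the retinal actin-bundling gene FSCN2, with both over the whole window. In WT cells CPA1 had no island, and FSCN2 had 2.20 kb of H3K9me3 with H3K27me3 and H3R8me2a over the whole window. With H3K27me3 as the third mark, SLC9A3, a sodium-proton exchanger of gut and kidney, and MUC6, a gastric mucin, had H3K9me3, H3K27me3 and H3R8me2a over the whole window in KO cells and H3K27me3 alone in WT cells. CACNA1B, a neuronal calcium channel, had the whole window, 3.2 kb and 1.23 kb of the 3 marks. Of the 400 promoters, 174 had H3R8me2a in WT cells and 85 had H3K9me3.

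At promoters with H3K9me3, H3K27me3 and H3K4me3 the length under each mark varied between genes. TERT, the catalytic subunit of telomerase (ENSG00000164362.21, chromosome 5, 1253262 to 1295183, minus strand), had H3K9me3 and H3K27me3 over the whole window and 3.62 kb of H3K4me3 in KO cells. It had the same pattern in WT cells, with 2.82 kb of H3K4me3. DUSP22, a phosphatase, had all 3 over the whole window in KO cells, against 0.171 kb of H3K27me3, 3.83 kb of H3K4me3 and no H3K9me3 in WT cells. DLGAP2, a postsynaptic protein, had 0.173 kb of H3K4me3 beside the whole window of H3K9me3. All 4 marks met at 47 promoters. SLC12A7, a potassium-chloride cotransporter, had 3.001 kb of H3K9me3, the whole window of H3K27me3 and H3K4me3 and 1.38 kb of H3R8me2a, and had the last 3 marks over the whole window in WT cells with no H3K9me3. In the zinc finger gene ZKSCAN7 the H3K27me3 came to 0.516 kb.

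**Figure D4:**
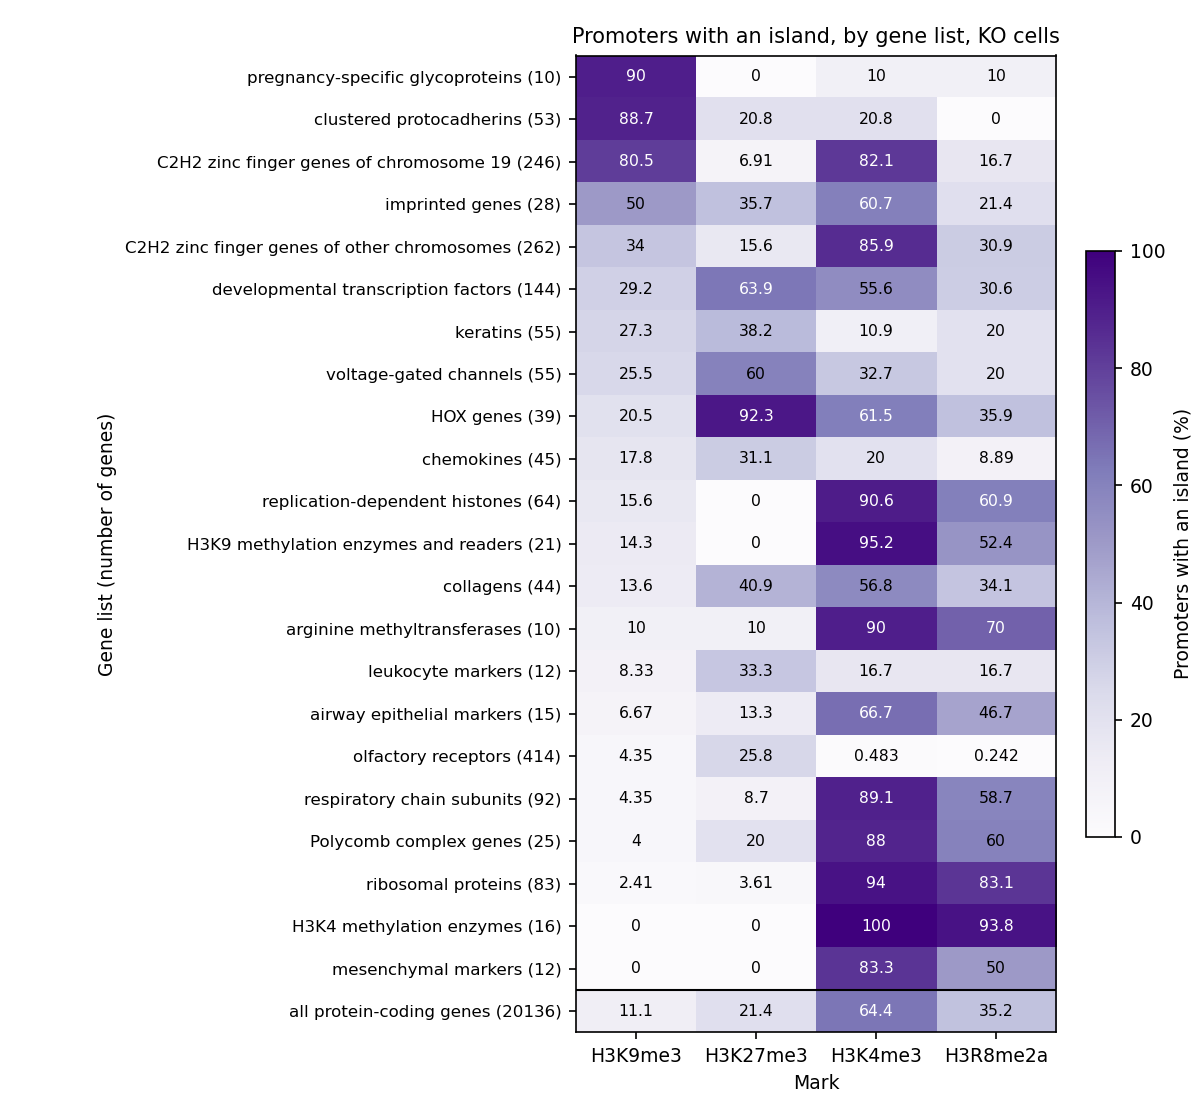
Share of promoters (%, shading and printed value) with an island of each mark in KO cells, for gene lists of at least 10 genes (number in brackets) in order of their H3K9me3 share, with all protein-coding genes in the last row. The first 3 rows have H3K9me3 at 80.5% of promoters or more and H3K27me3 at 20.8% or less, and the HOX row has 20.5% and 92.3% for these marks.

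Housekeeping genes lay at the other end. H3K9me3 was found at 2 of 83 ribosomal protein promoters and 4 of 92 respiratory chain promoters (2.41% and 4.35%, against 11.1% of all genes). H3K4me3 was at 78 and 82 (94.0% and 89.1%, against 64.4%) and H3R8me2a at 69 and 54 (83.1% and 58.7%, against 35.2%). RPL11, of the large ribosomal subunit, had 1.37 kb of H3K9me3 beside 3.03 kb of H3K4me3, and RPL12 had 1.12 kb beside the whole window of H3K4me3. COX6A2, the muscle form of a cytochrome oxidase subunit, had 2.32 kb of H3K9me3 with H3K27me3 over the whole window and no H3K4me3. Among 64 replication-dependent histone genes, 10 had H3K9me3 (15.6%, against 11.1% of all genes), 58 had H3K4me3 and none had H3K27me3. Over promoters whose window met no other, 3 histone genes had H3K9me3. That set leaves out genes with close neighbours, and how many of the 64 it keeps was not counted, so no share is given. With the longest islands at equal total length, no histone gene had H3K9me3, against 943 of all 20136 genes. The testis histone genes H2AC1 and H2BC1, which are neighbours, had H3K9me3 over the whole window and no other mark in KO cells, and no island in WT cells.

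The genes that write, read and remove these marks were themselves mostly under H3K4me3. Of 21 H3K9 methylation enzymes and readers, 20 had H3K4me3 (95.2%, against 64.4% of all genes) and none had H3K27me3. H3K9me3 lay at 3 of the 21 (14.3%, near the 11.1% of all genes). These were TASOR, with 2.89 kb, and MORC2, with 2.6 kb, both of the HUSH silencing system, and CBX1, an HP1 protein, with 0.84 kb. MORC2 had 2.6 kb in WT cells too, and TASOR and CBX1 had none. Of 16 H3K4 methylation enzymes none had H3K9me3, all had H3K4me3 and 15 had H3R8me2a (93.8%, against 35.2% of all genes). Of 25 genes of Polycomb complexes and of the H3K27 demethylases KDM6A and KDM6B, 5 had H3K27me3, at 20% near the 21.4% of all genes, among them CBX2 and CBX8, and AEBP2 had H3K9me3 over the whole window with no other mark. Among 10 genes, those of arginine methyltransferases and of the hydroxylase JMJD6, PRMT8, the brain form, had 0.286 kb of H3K9me3 with H3K27me3 over the whole window, and the 9 others had H3K4me3 and neither repressive mark. RIOX1, the paralog of mdig, had H3K4me3 alone.

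Imprinted genes, which are marked on 1 parental allele, had H3K9me3 at 14 of 28 promoters in KO cells (50%, against 11.1% of all genes) and at 5 in WT cells. Of the 14, 7 had H3K4me3 and 6 had H3K27me3. Over promoters whose window met no other the KO count was 7, but how many of the 28 genes that set keeps was not counted. With the longest islands at equal total length the KO count was 3, against 943 of all 20136 genes. NNAT had H3K9me3 and H3R8me2a over the whole window and 0.608 kb of H3K4me3, and MEST 3.6 kb of H3K9me3 and 3.21 kb of H3K4me3. In WT cells NNAT had no H3K9me3 and MEST had no island. L3MBTL1, of the Polycomb-like MBT family, had H3K9me3 over the whole window and 3.72 kb of H3K27me3. Chemokines had H3K9me3 at 8 of 45 promoters (17.8%, against 11.1% of all genes), and at 0 with the longest islands at equal total length. Of the 8, 5 had H3K27me3 and none had H3K4me3. CXCL12 and CXCL14 had 2.46 kb and 2.83 kb of H3K9me3 inside whole windows of H3K27me3. Collagen promoters had H3K9me3 in 6 of 44 (13.6%, near the 11.1% of all genes). Besides COL23A1, COL6A3 had H3K9me3 over the whole window with no other mark, and it had no island there in WT cells.

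Over gene bodies, from start to end of the gene, H3K9me3 was found in 33.6% of genes (6767), H3K27me3 in 25.1% (5045), H3K4me3 in 71% (14299) and H3R8me2a in 42% (8452). H3K27me3 lay in 36.2% of the bodies with H3K9me3 and 19.4% of those without, a difference of 16.75 points. H3K4me3 lay in 71.1% with H3K9me3 and 71.0% without, a difference of 0.17 points, and H3R8me2a in 36.4% and 44.8%, a difference of -8.42 points. Long bodies have more room for every mark. H3K9me3 lay in 12.8% of the shortest of 5 groups of gene length (up to 7.27 kb) and 70.3% of the longest (from 90.4 kb). In the shortest group the difference between bodies with and without H3K9me3 was 30.55 points for H3K27me3, -29.56 for H3K4me3 and -22.13 for H3R8me2a. In the longest group it was 1.21 points for H3K27me3, 9.46 for H3K4me3 and 5.96 for H3R8me2a. The mean over 5 groups of gene length was 17.80 points for H3K27me3, -13.38 for H3K4me3 and -11.15 for H3R8me2a, so the near equality of H3K4me3 held for the pooled genes and in no length group.

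Sharing a body did not mean sharing bases for each mark. Of the 2448 bodies with H3K9me3 and H3K27me3, 1807 (73.8%) had a base under both, and 58.5% of their H3K9me3 bases lay under H3K27me3. Of the 4813 with H3K9me3 and H3K4me3, 1149 (23.9%) had a shared base, and 4.11% of the H3K9me3 bases were shared. For H3R8me2a it was 923 of 2462 (37.5%), with 13.6% of the bases shared. Along genes of at least 10 kb, H3K4me3 covered 56.3% of the first of 20 equal parts and 6.51% of the tenth on average, while H3K9me3 covered 5.82% of the first part, 8.51% of the tenth and 9.46% of the nineteenth.

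The shape was sharper in zinc finger genes of chromosome 19. There H3K9me3 covered 51.6% of the first part, 72.2% of the tenth and 83.1% of the nineteenth, and H3K4me3 76.7%, 4.10% and 3.16%, with H3K27me3 at 3.62% in the first part. Their median body was 84.7% under H3K9me3, against 0% over all genes. Collagens, structural proteins of the extracellular matrix, had H3K9me3 in 33 of 44 bodies (75%, against 33.6% of all genes) with a median cover of 6.03%. Gene length was not accounted for in this count, and H3K9me3 lay in more of the long bodies than of the short ones. H3K9me3 cover was uneven along the collagens. It came to 5.34% of the first part and 21.7% of the tenth on average, beside 18.5% of H3K27me3 and 25.0% of H3R8me2a in the tenth. Of the 33 collagen bodies with H3K9me3, 15 had H3K27me3, 23 had H3K4me3 and 16 had H3R8me2a. Among the bodies of all genes with H3K9me3 the shares were 36.2%, 71.1% and 36.4%.

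**Figure D5:**
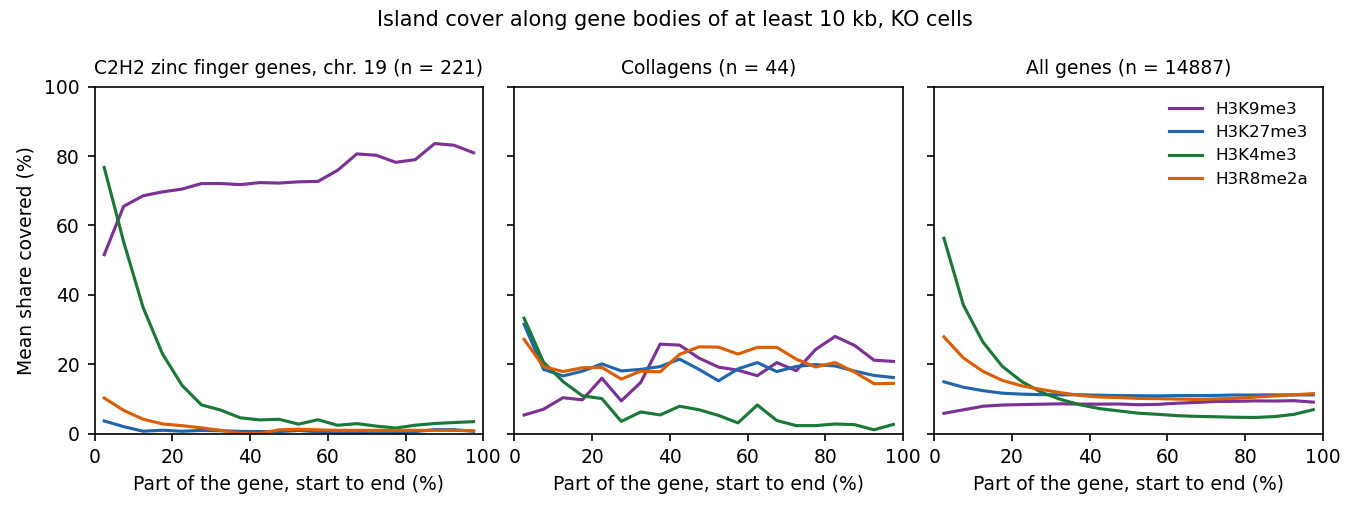
Mean share of each of 20 equal parts of the gene (%, vertical axis) under islands of each mark, from start to end of the gene (horizontal axis), for genes of at least 10 kb in KO cells. In the zinc finger genes of chromosome 19 H3K9me3 is lowest in the first part (51.6%), where H3K4me3 is highest (76.7%), and in collagens and all genes H3K9me3 is also lowest in the first parts.

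The bodies with the most bases under both H3K9me3 and H3K27me3 were long genes. PTPRN2, a phosphatase of secretory granules (chromosome 7, 157331750 to 158380515), had 639 kb under both, out of 716 kb of H3K9me3 and 867 kb of H3K27me3. SHANK2, a postsynaptic scaffold, had 511 kb, CDH4, a cadherin, 456 kb, CAMTA1, a transcription activator, 347 kb and DLGAP2 332 kb. Their H3K9me3 in WT cells was 177 kb in PTPRN2, 82.6 kb in SHANK2, 87 kb in CDH4, 25.8 kb in CAMTA1 and 105 kb in DLGAP2. Relative to its length, COL23A1 stood close to SHANK2: H3K9me3 covered 79.9% of its 353 kb and H3K27me3 91.0%, with 270 kb under both. The bodies wholly under H3K9me3 among genes of at least 10 kb included BPIFB3 and BPIFB6, neighbours on chromosome 20 that were wholly under H3K27me3 as well. BPIFB3 was wholly under H3R8me2a too. CD300LB, a receptor of myeloid cells, was wholly under both repressive marks, and ANHX, a homeobox gene, under H3K9me3 alone of the 4.

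Shared bases with H3K4me3 and H3R8me2a were fewer and lay in other genes. MAP2K3, a kinase of the p38 pathway, had 24.9 kb under H3K9me3 and H3K27me3, 22.3 kb under H3K9me3 and H3K4me3 and 19.8 kb under H3K9me3 and H3R8me2a, with a promoter free of H3K9me3 and no H3K9me3 over its body in WT cells. CHFR had 21.1 kb and AHRR, the aryl hydrocarbon receptor repressor, 18.6 kb under H3K9me3 and H3K4me3. The readthrough gene PDCD6-AHRR had the same 18.6 kb as AHRR, since they overlap. For H3R8me2a the leading genes were RBFOX3, the neuronal splicing factor known as NeuN, with 88 kb shared, RPTOR of the mTORC1 complex with 70.2 kb, MAD1L1 of the spindle checkpoint with 69.8 kb, MGLL, a monoacylglycerol lipase, with 49.6 kb and SLC9A3 with 46.8 kb. RPTOR and MAD1L1 had H3K4me3 at their promoters and no H3K27me3 over the body, while in RBFOX3 H3K27me3 covered 95.8% of the body. SLC9A3, SLC12A7, TERT, AHRR and PDCD6-AHRR lie between 271785 and 1295183 on chromosome 5, near the end of its short arm.

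By chromosome, H3K27me3 covered more of the bases under H3K9me3 than of the rest on 22 of 23 chromosomes, leaving out Y. The exception was chromosome 19, with 18.0% under H3K9me3 and 21.3% of the rest. Chromosome 19 also had the most H3K9me3, over 24.3% of its known bases and at 27.6% of its promoters. The share of H3K9me3 under H3K27me3 ranged from 14.5% on X to 57.0% on chromosome 20. H3K4me3 covered less of the H3K9me3 bases than of the rest on 22 of 23 chromosomes, chromosome 4 being the exception with 1.77% and 1.67%. For H3R8me2a the share was higher under H3K9me3 on 12 chromosomes and lower on 11, so the small excess of the whole genome had no common direction.

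The CG content of a promoter went with H3K4me3 more than with H3K9me3. The ratio of observed to expected CG in the 1 kb around the start had a median of 0.69 over all promoters. It was 0.62 in promoters with H3K9me3 and 0.69 in those without. Among promoters with H3K9me3 it was 0.74 where H3K4me3 was present and 0.43 where it was absent, and with H3K4me3 and no H3K9me3 it was 0.77. Promoters with H3K9me3 alone had a median of 0.37, those with H3K9me3 and H3K27me3 0.53, those with H3K27me3 alone 0.35 and those with no mark 0.24. COL23A1, at 0.89, lay above its own group, and ZNF141, at 0.78, was typical of promoters with H3K9me3, H3K4me3 and H3R8me2a, whose median was 0.78. ZNF670-ZNF695, at 0.72, was typical of promoters with H3K9me3 and H3K4me3 only, whose median was 0.72, and lay above the 0.69 of all promoters.

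The same comparison in WT cells gave another pattern for H3K27me3. There 575 promoters had H3K9me3, and H3K27me3 lay at 16.5% of them (95) and at 20.4% of the others, a difference of -3.86 points, against 20.01 points in KO cells. H3K4me3 lay at 59.5% with H3K9me3 and 64.9% without, a difference of -5.40 points, and H3R8me2a at 12% and 27.9%, a difference of -15.93 points. Of the H3K9me3 bases, 27.6% lay under H3K27me3 in KO cells and 10.4% in WT cells, against 10.8% and 8.93% of the bases outside H3K9me3. The length under both marks was 53.7 Mb in KO cells and 5.48 Mb in WT cells, and that of all H3K9me3 194.9 Mb and 52.8 Mb. Of the KO promoters with H3K9me3 and H3K4me3, 326 of 880 (37.05%) had H3K9me3 in WT cells, a larger share than of those with H3K27me3. The marks differ in how much they cover, and more cover cannot be told apart from more permissive calling by islands alone. The shift between genotypes also differed by chromosome. Of the bases outside H3K9me3, H3R8me2a covered 3.45% in KO cells and 2.19% in WT cells over the genome. On chromosome 3 these shares were 4.40% and 1.06%, and on chromosome 22 they were 5.66% and 11.0%. What lay behind such shifts was not tested, and it bears on each KO and WT value given for single genes.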

How the data were processed

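ChIP-seq islands of 4 histone marks in BEAS-2B cells were compared within KO cells, with 1 library for each mark. Per the study's methods, reads of 75 nt were placed on hg19 by the authors with BWA and lengthened to 200 bp fragments, and larger samples of a comparison were randomly thinned to the smallest. The submitters' processing notes also name SICER 1.1. The deposited islands hold a chromosome, start and end, with no counts, so depth is unknown, and the files hold no other per-sample values. Ends were read as inclusive on the 200-base grid that every island edge followed. The deposited merged regions were not used.

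Genes were the protein-coding genes of GENCODE 44 mapped to GRCh37, 1 for each symbol, each with its annotated 5′ end as its start, so other starts of a gene were not used. An overlap needed 1 base. Python 3.11.15, numpy 2.4.6, scipy 1.17.1, pandas 2.3.3 and matplotlib 3.10.9 were used. The promoter count of each mark and the number of H3K9me3 islands overlapping each other mark were the same with bedtools 2.31.1, and the code was tested on simulated data. The expected number of CG is that from the C and G content of the 1 kb window.

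The genes named are those of 4 rules: genes of the marks' enzymes and RIOX2; for each promoter combination with H3K9me3, the 5 genes with the most H3K9me3 bases; the 5 bodies with the most bases shared with each mark and the 5 of at least 10 kb with the highest H3K9me3 share; and up to 4 members of each list with the most H3K9me3 at the promoter. Genes under the longest islands, and further members named as examples, were picked after their values were seen. Genes of chromosome Y or with no symbol were not named. A gene and a sequence that these rules select are not reported here. The members, lists and rules were chosen with earlier results of these data known. Alternatives were other windows, overlaps, island lengths and gene sets. A percentage counted as moved when it left the 95% counting interval of its value, and a number of genes when it differed by over 1.5 times.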

Additional observations from a re-analysis of the deposited data

Results flagged for a closer look

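The difference in H3K27me3 between genes with and without H3K9me3 had opposite signs in KO and WT cells. At promoters it was 20.01 percentage points in KO cells and -3.86 points in WT cells, and over gene bodies it was 16.75 points in KO cells and -0.35 points in WT cells. With 1 library for each mark the difference between KO and WT was not tested. H3K9me3 covered 194.9 Mb in KO cells and 52.8 Mb in WT cells. With the longest KO islands of each mark kept up to the total of its WT library, the KO difference was 17.10 points at promoters and 21.68 points over gene bodies.

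The share of bases under H3R8me2a, inside over outside H3K9me3 islands, lay on opposite sides of 1 in the genotypes, at 1.28 in KO cells and 0.67 in WT cells. This difference was not tested either. At promoters H3R8me2a was less frequent with H3K9me3 in both genotypes.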

How the results depend on the processing

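The 13 counts, shares and differences of the report were recomputed under alternatives, which gave 107 values, of which 72 stayed within their limits, 34 moved and 1 was reversed. Of 53 differences between genes with and without H3K9me3, 47 kept their sign. The others were the H3R8me2a value below and H3K4me3 over gene bodies, which was 0.17 points with all genes and islands and negative in the alternatives of autosomes (-0.85), no zinc finger genes (-0.85), equal island length (-0.30), bodies beyond 2 kb (-1.29) and length groups (-13.38). The sign of the H3K27me3 difference held in each alternative run, from 13.10 to 24.21 percentage points at promoters and 13.03 to 21.68 points over gene bodies. Of 192 counts of H3K9me3 promoters in gene lists under alternatives, 28 moved by over 1.5 times. With equal island length these included HOX genes (1), developmental factors (17), channels (3), keratins (7), collagens (2) and chemokines (0), where 943 of all 20136 genes had H3K9me3. The cause of the shifts below was not tested.

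With windows of 1 kb on both sides, the promoter difference was -32.04 points for H3K4me3 and -21.78 for H3R8me2a. With 5 kb, it was 16.42 for H3K27me3, -20.72 for H3K4me3 and -14.81 for H3R8me2a, with 1621 promoters of H3K9me3 and H3K4me3 and 815 of H3K9me3 and H3R8me2a. With at least 1 kb of island required, it was -31.79 for H3K4me3 and -21.82 for H3R8me2a, and 2.04 for H3K4me3 over bodies. Over promoters that met no other promoter, H3R8me2a gave -15.38 points. Beyond 2 kb past the start, H3K4me3 over bodies gave -1.29 points, and within 5 groups of gene length -13.38, with -11.15 for H3R8me2a.

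With the longest islands of each mark kept up to the length of the mark that covers least, promoters with H3K9me3 numbered 943. Of these, 164 also had H3K27me3, 433 also had H3K4me3 and 183 also had H3R8me2a. The promoter differences were 13.10 points for H3K27me3, -18.45 for H3K4me3 and -16.61 for H3R8me2a. Over bodies they were 13.03 for H3K27me3 and 0.44 for H3R8me2a, a change of sign. H3K9me3 islands overlapped H3K27me3 in 16.5%, H3K4me3 in 8.83% and H3R8me2a in 10.4%, so the order of H3K4me3 and H3R8me2a turned. With at least as much of the H3K9me3 island under the other mark as outside it, the shares were 21.9%, 1.57% and 3.13%. With islands within 1 kb merged, 23.1% overlapped H3K27me3.

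The following alternatives were chosen after seeing the data. Without zinc finger genes of ZNF symbols the promoter differences were 24.21 points for H3K27me3 and -34.06 for H3K4me3, and the body difference was 18.27 for H3K27me3. With KO islands kept up to the WT totals they were 17.10 and 21.68 for H3K27me3 at promoters and bodies. No paired analysis was possible because each mark and genotype had 1 library. Islands carry no height or depth, so weak signal below the threshold of the caller is counted as unmarked, and libraries of unlike depth or antibody can differ in cover.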
